A study of Homo sapiens with 647 samples.

Results

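These libraries come from T47D cells, an estrogen receptor positive luminal breast cancer line, that carry FGFR2 with the activating kinase-domain substitution N550K, and they compare cells given the FGFR inhibitor FIIN-3 without added ligand with cells given the solvent DMSO. The FIIN-3 libraries are the 6 of that line and treatment whose title number lies above 360, which puts them in the first of 2 sets of libraries; 6 DMSO libraries of the same line, also of set 1, are the reference. Together they are 12 of the 647 libraries of the series. The receptor was delivered by lentivirus in the pLX307 plasmid, so these are infected cultures that also keep their own FGFR2, and the reads of the transgene and of the resident gene were counted together. Cells were plated for 48 h and treated for 24 h. FIIN-3 was used at 100 nM. RNA was read by SMART-Seq2, a full-length cDNA method for small inputs. All cells in the first comparison carried N550K, and FGF2 was in neither group.

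Other libraries served as reference points. In set 1 these were 6 N550K libraries with FGF2, 6 with FGF2 and FIIN-3, 6 with GFP in place of the receptor and DMSO, and 5 DMSO and 6 FIIN-3 libraries of cells carrying the ligand FGF3. In set 2, which was not mixed with set 1 in any test, they were 6 N550K libraries with FIIN-3, 6 with palbociclib at 1 uM, a CDK4/6 inhibitor, and 6 GFP libraries with FIIN-3. The dose of FGF2 is not given in the sources used here, and no label tells whether 2 libraries of a group are separate cultures, so p-values measure the spread between these libraries, which may be technical. The title numbers of the 6 FIIN-3 libraries all lie above those of the 6 DMSO libraries, so title range and treatment cannot be told apart in the first comparison.

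FGFR2 is a receptor tyrosine kinase for fibroblast growth factors. Once active it signals through the adaptor FRS2 to RAS, RAF, MEK and ERK and to PI3K and AKT. ERK output in turn induces its own inhibitors, among them the phosphatases DUSP4 and DUSP6 and the Sprouty and SPRED proteins, and raises D cyclins, which with CDK4 and CDK6 release E2F factors and let cells enter S phase. FIIN-3 binds FGFRs covalently and also reaches EGFR. In luminal breast cancer cells growth normally depends on the estrogen receptor, and growth factor signalling is one of the routes by which cells can do without it.

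Libraries stood apart in 2 ways. DMSO replicates 3 and 4, which have neighbouring title numbers, held 1.32% and 1.09% of their counts in MT-RNR2, the mitochondrial large ribosomal RNA, while the FIIN-3 libraries held 13.03% to 20.7%; values are therefore given with all 12 libraries and, where it matters, "without the low-MT-RNR2 pair". FIIN-3 replicate 1 was shallow, with 512961 counts against a median of 7304226 in its group and of 8020295 in the DMSO group. Total counts averaged 5.69e+06 ± 3.21e+06 (SD, n = 6) with FIIN-3 and 8.29e+06 ± 1.21e+06 (SD, n = 6) with DMSO (exact two-sided permutation test, p = 0.0909; p = 0.0381 without the pair). The MT-RNR2 share was 17.6% ± 2.74 with FIIN-3 and 12.4% ± 9.07 with DMSO (SD, n = 6 each; exact permutation test, p = 0.264), and without the pair the DMSO mean was 17.9% (p = 0.848). The part of either difference in the results below was not tested, beyond the values given without those libraries. All 8 markers of luminal T47D cells were detected in both groups, with a summed level of 33854 to 48208 CPM (counts divided by the library total, times 1e+06) with FIIN-3 and 13826 to 30469 with DMSO. The 15 markers of fibroblasts, blood and endothelium summed to 29.7 to 38.4 CPM and 11.6 to 35.6 CPM, most of it COL1A1, while PTPRC, HBB and CDH5 were at 0 in every library of both groups.

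FGFR2 itself checks the label of the FGFR2 line against GFP cells. Its gene-level count cannot show the N550K substitution or the treatment. It read 8.22, 13.1 and 21.7 CPM (lowest, median, highest of 6 libraries, as for all such triples below) in GFP cells with DMSO and 26.4, 334.5 and 451.4 CPM in N550K cells with DMSO. N550K cells with FIIN-3 read 383.8, 669.1 and 881.2 CPM. Every N550K library lay above every GFP library, and the low-MT-RNR2 pair were the lowest N550K libraries. With FIIN-3 the gene was higher by 1.37 ± 0.45 on the log2 scale (SE; adjusted p = 0.039), and by 0.85 ± 0.17 without the pair (adjusted p = 0.00033). FGFR2 lost this call in 10 of 22 alternative settings.

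Gene by gene, 3200 of 12467 genes tested passed an adjusted p of 0.05 (edgeR's quasi-likelihood test, Benjamini-Hochberg adjustment over all genes tested, as for every adjusted p below), which is 25.7%. Of these, 1222 (9.8%) were higher and 1978 (15.9%) lower with FIIN-3. Without the low-MT-RNR2 pair 4221 of 13024 genes (32.4%) passed, 1716 higher (13.2%) and 2505 lower (19.2%), and 2729 of the 3200 first calls (85.3%) were called again in the same direction. In 813 genes (6.52%) all 6 FIIN-3 libraries read above all 6 DMSO libraries, and in 789 (6.33%) all read below. The median log2 change over all genes tested was -0.08. When libraries with neighbouring title numbers were summed (3 against 3), 64 genes passed, of 2955 at an unadjusted p under 0.05. Summed and without the low-MT-RNR2 pair (3 against 2), 2907 of 14880 passed. The low-MT-RNR2 pair resembled each other, at a chi-square per degree of freedom of 19.8 against 234.9 or more with other DMSO libraries. Lower values mean a closer match. In each other neighbouring pair, a member was closer by this measure to a library of its group outside the pair. Among genes named here DUSP6, DUSP4, TYMS, CDT1, CLSPN, MYBL2, BCAS1, PIK3IP1, DUSP15, SELENBP1, BHLHE40, ARRDC3, SPC25, FAM111B and CMTM7 were called under every alternative tried. DUSP15 passed the filter on low counts through its FIIN-3 level, which favoured a rise, and the alternatives include a fit without that filter. With so many genes called, a list with a few calls is close to the background, and each list below is read against these shares. In bulk RNA, fewer cells of a kind and less of an RNA per cell cannot be told apart.

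Genes that ERK induces were the first group examined, because they report the signal that FIIN-3 is meant to block. DUSP6, the cytoplasmic phosphatase that acts on ERK, read 11.5, 52.9 and 72.2 CPM with DMSO and 1.09, 1.96 and 3.90 CPM with FIIN-3. The groups did not overlap, although the low-MT-RNR2 pair read 11.5 and 15.1 CPM and the other DMSO libraries 49.3 CPM or more. DUSP6 fell by 4.56 ± 0.40 on the log2 scale (adjusted p = 2.4e-05), and by 4.97 ± 0.24 without the pair. DUSP4, a nuclear ERK phosphatase, went from 38.6, 116.8 and 129.9 CPM to 12.1, 17.4 and 26.2 CPM, again without overlap, and fell by 2.38 ± 0.26 (adjusted p = 6.2e-05).

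Of the 9 phosphatases on the ERK list, all tested, 4 fell and none rose, with a median log2 change of -1.10 against -0.08 over all genes. DUSP5 and DUSP1, the other 2, fell by 1.81 ± 0.59 and 1.38 ± 0.47 (adjusted p = 0.036 and 0.043), with overlapping groups and calls that were lost in 10 and 12 of 22 alternatives. Without the pair 6 of the 9 fell.

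Among feedback inhibitors of receptor signalling the picture was split. SPRED2, an inhibitor of RAS to RAF signalling, went from 11.9, 25.5 and 31.8 CPM to 7.28, 8.93 and 11.7 CPM without overlap and fell by 1.40 ± 0.20 (adjusted p = 0.00036). ERRFI1, which binds and inhibits EGFR-family kinases, fell by 1.92 ± 0.37 and SPRY1 by 1.14 ± 0.29. In the other direction, LRIG1, a membrane protein that restrains receptor tyrosine kinases, rose by 0.93 ± 0.23 and CBLB, a ubiquitin ligase for such receptors, by 1.29 ± 0.31. Of 12 genes on this list 6 passed the filter on low counts, and of these 3 fell and 2 rose. SPRY4 read 0.583, 2.90 and 6.89 CPM with DMSO and 0, 0.121 and 0.700 CPM with FIIN-3. It passed the filter only without the pair and only through its DMSO level, so its direction there was fixed by the filter and no test of it is given.

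Transcription factors downstream of ERK moved in both directions. ETV4, a PEA3-group ETS factor, went from 0.583, 4.20 and 9.51 CPM to 0, 0.256 and 0.350 CPM. Its groups did not overlap, but like SPRY4 it passed the filter only without the pair and through its DMSO level, as did ETV1, and no test of either is given. ELF3, an epithelial ETS factor, moved the other way, from 19.4, 69.8 and 74.5 CPM to 138.1, 149.1 and 259.3 CPM, a rise of 1.55 ± 0.25. Of 10 ETS factors listed 6 were tested with all libraries, of which 2 rose and none fell. JUN fell by 1.73 ± 0.38 and JUNB by 1.63 ± 0.40, both partners in the AP-1 factor. MYC, a driver of growth genes, rose by 1.35 ± 0.30, from 3.64, 20.6 and 27.6 CPM to 37.1, 44.1 and 50.8 CPM without overlap. JUN, JUNB and MYC were the 3 called genes among 13 immediate early genes tested of 20 listed. Without the pair 1 rose and 6 fell of 14, and the list's median changed from 0.18 to -0.08.

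**Figure D1:**
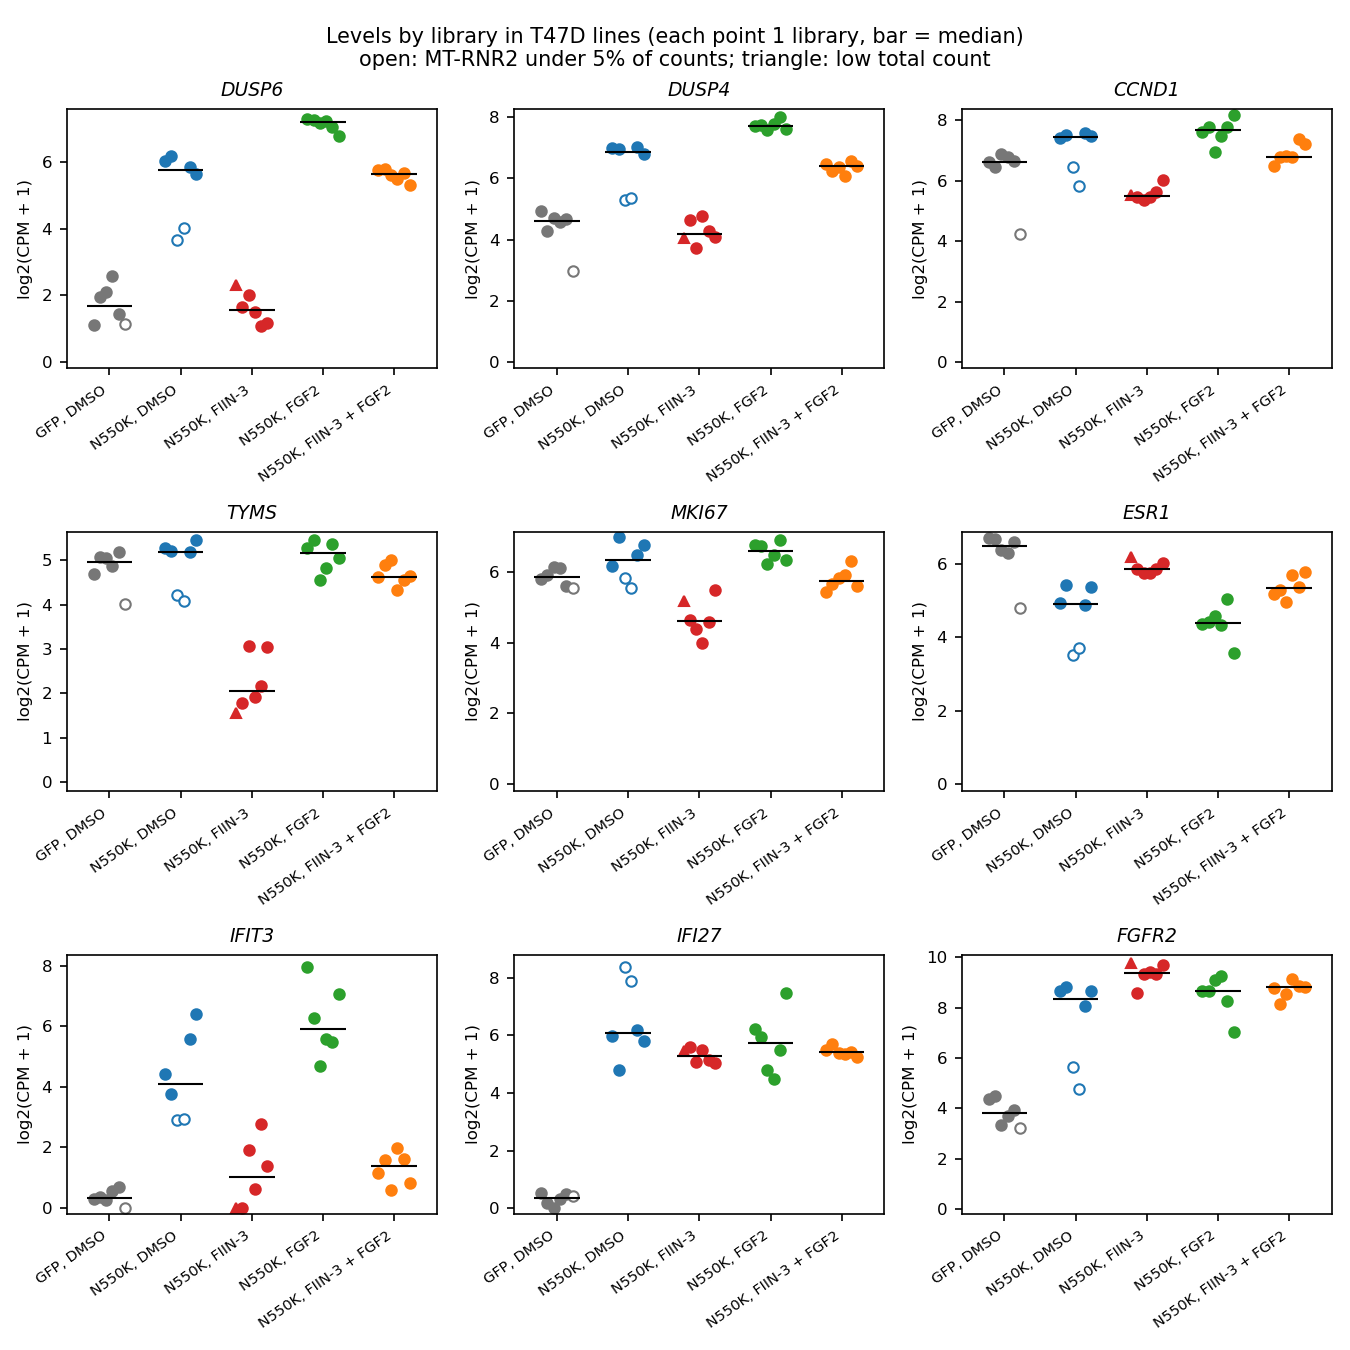
Levels of 9 genes as log2(CPM + 1) in set 1, 1 point a library and a bar at the median, for GFP cells with DMSO and N550K cells with DMSO, FIIN-3, FGF2, or FIIN-3 and FGF2; open points are libraries with MT-RNR2 under 5% of counts and triangles libraries of low total count. With FIIN-3 alone every DUSP6 and DUSP4 point sits below every N550K point with DMSO, and the open low-MT-RNR2 pair are the lowest DMSO points for both genes.

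Cell cycle genes formed the largest block of lower genes among the lists. CCND1, the D cyclin often amplified in breast cancer, went from 56.02, 173.5 and 190.9 CPM to 40.1, 44.1 and 64.3 CPM. The ranges met only through the low-MT-RNR2 pair, and CCND1 fell by 1.69 ± 0.20 (adjusted p = 0.00013). CCND3 fell by 1.23 ± 0.25. The CDK4/6 inhibitor genes CDKN2D and CDKN2C fell as well, by 2.26 ± 0.43 and 1.73 ± 0.44, as did RBL1, which encodes the pocket protein p107, by 1.47 ± 0.37. Of 12 D cyclin and CDK inhibitor genes tested of 14 listed, 5 fell and none rose, with a median of -1.03.

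Of 28 genes of the G1/S transition and DNA replication, all tested, 26 fell and none rose, with a median log2 change of -1.71, and in 10 of the 28 the groups did not overlap. The share is far above the 15.9% of all genes called lower. TYMS, the thymidylate synthase of DNA precursor supply, went from 16.02, 35.4 and 42.6 CPM to 1.95, 3.15 and 7.33 CPM and fell by 2.84 ± 0.30 (adjusted p = 5.3e-05). RRM2, the regulated subunit of ribonucleotide reductase, went from 133.3, 408.0 and 470.8 CPM to 53.5, 78.9 and 99.5 CPM, a fall of 2.22 ± 0.24. CLSPN, the checkpoint adaptor claspin, went from 26.5, 33.3 and 46.5 CPM to 0, 2.74 and 7.35 CPM and fell by 3.62 ± 0.43; the value of 0 is in the shallow library. None of these 3 genes had overlapping groups. PCNA, the sliding clamp of replication, fell by 2.14 ± 0.30, CDT1, which licenses origins, by 1.77 ± 0.20, and E2F1 itself by 1.68 ± 0.24. GINS2, of the replicative helicase, fell by 3.02 ± 0.45, and by 2.10 ± 0.16 without the pair. MCM4 and UHRF1 were the 2 that did not pass, and without the pair all 28 fell.

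Of 24 genes of G2 and mitosis 20 fell and none rose, with a median of -1.34, and without the pair 23 fell. MKI67, the antigen used to score proliferation, went from 46.2, 79.7 and 126.1 CPM to 15.03, 23.4 and 44.3 CPM without overlap and fell by 1.78 ± 0.25 (adjusted p = 0.00034). MYBL2, a factor that turns on mitotic genes, fell by 2.34 ± 0.25, the kinase gene AURKB by 2.42 ± 0.37 and the kinetochore gene CENPF by 1.66 ± 0.28. UBE2C, which serves the anaphase-promoting complex, fell by 3.14 ± 0.61, but by 1.54 ± 0.17 without the pair, 1 of which read 1497 CPM against a DMSO median of 387.

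Promoters of the genes that fell are shown because E2F factors act at a known short sequence. RefSeq windows of 300 bases (GRCh38.p14, from 250 before to 50 after the annotated start) were searched on both strands for the E2F letters TTTCCCGC, TTTGGCGC, TTTCGCGC and TTTGCCGC. They occurred in 16 of the 22 G1/S genes with a window (72.7%), in 2 of 18 mitotic genes and in 3.33% of all 27305 windows. The CHR letters TTTGAA, known from mitotic promoters, occurred in 10 of the 18 mitotic genes (55.6%), in 1 of the 22 G1/S genes and in 15.4% of all windows. The CCAAT box, searched as CCAAT, was in 72.7% and 77.8% of the 2 lists against 35.7% of all. It was about as common in lists described below that did not fall as a block. These were cholesterol and fatty acid synthesis (75%), ATF4 and stress response (71.4%) and MHC (69.2%). In all, 8 motifs were searched in 25 lists, those shown were picked after the matches were seen, and a match describes letters, not binding. The 2 windows below are those of CLSPN (chr1:35769929-35770228, minus strand) and TYMS (chr18:657403-657702, plus strand), 2 of the G1/S genes described above, each written 5′ to 3′ along the gene with the E2F letters, here in reverse complement, in capitals.
CLSPN: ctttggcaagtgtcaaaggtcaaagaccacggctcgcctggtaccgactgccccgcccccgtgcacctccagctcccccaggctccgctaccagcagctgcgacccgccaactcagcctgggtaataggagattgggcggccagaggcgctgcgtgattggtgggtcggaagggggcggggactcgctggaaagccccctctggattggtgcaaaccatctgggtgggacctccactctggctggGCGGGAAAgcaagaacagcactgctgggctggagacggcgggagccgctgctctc
TYMS: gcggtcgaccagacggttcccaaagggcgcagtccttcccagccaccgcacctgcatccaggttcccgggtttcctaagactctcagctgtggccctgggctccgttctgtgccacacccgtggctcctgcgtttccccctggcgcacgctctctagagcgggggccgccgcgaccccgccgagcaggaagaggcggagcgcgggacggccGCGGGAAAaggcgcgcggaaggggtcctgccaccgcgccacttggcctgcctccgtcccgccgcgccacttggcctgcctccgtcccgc
In CLSPN the match starts 5 bases before the annotated start and in TYMS 39 bases before it.

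**Figure D2:**
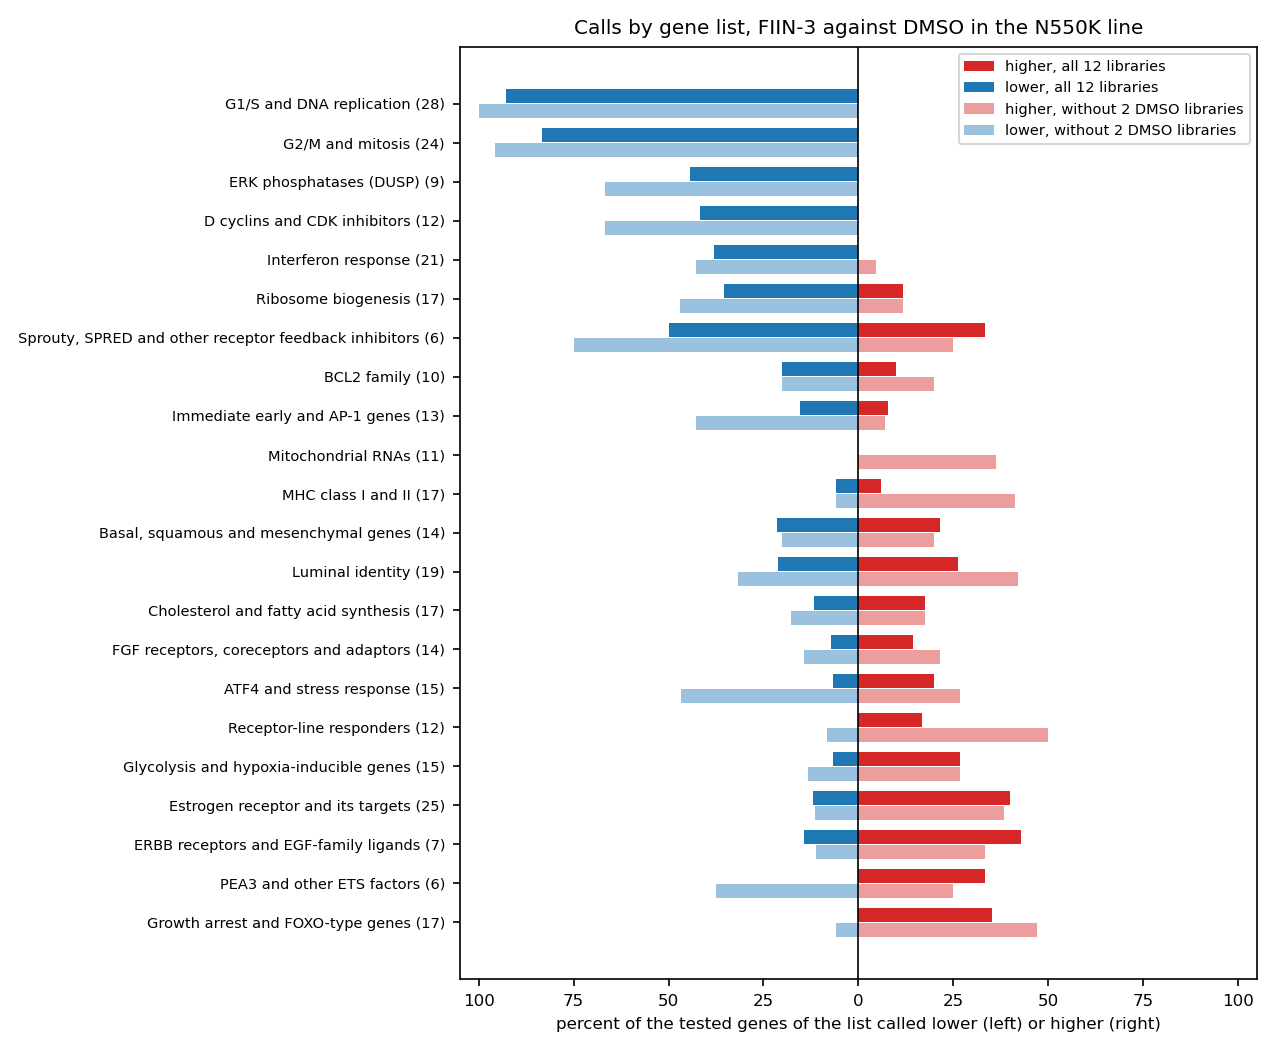
Percent of the tested genes of each list (number tested in parentheses) called lower, as bars to the left, or higher, as bars to the right, with FIIN-3 against DMSO, in dark colours with all 12 libraries and in pale ones without the low-MT-RNR2 pair of DMSO libraries; pale bars of the ETS and feedback inhibitor lists include ETV4, ETV1 and SPRY4, which the filter admitted through their DMSO level. The G1/S and mitotic lists have bars on the lower side alone, 26 of 28 and 20 of 24 genes with all libraries, while the longest bars on the higher side with all libraries are those of the ERBB and estrogen receptor lists.

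Interferon-stimulated genes, which report signalling from interferon receptors or from sensors of foreign nucleic acid, were lower in part. IFIT3, an antiviral RNA-binding protein, went from 6.41, 16.4 and 83.4 CPM to 0, 1.09 and 5.82 CPM, an estimated fall of 3.71 ± 0.71. IFIT3 passed the filter through its DMSO level, so the filter favoured a fall and no test of IFIT3 is given here. It stays in the counts of interferon genes below. The groups of IFIT3 did not overlap, yet the DMSO libraries differed widely among themselves, with replicates 5 and 6 at 46.96 and 83.4 CPM and the others at 20.2 CPM or less. IFIT2 fell by 3.50 ± 0.69 and IFIT1 by 1.71 ± 0.40. OAS1, which makes the activator of RNase L, went from 14.2, 21.8 and 35.1 CPM to 3.23, 5.58 and 13.6 CPM and fell by 2.10 ± 0.37, and OAS3 fell by 1.35 ± 0.23.

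Of 21 interferon genes tested of 26 listed, 8 fell and none rose, with a median of -0.85. The pair of DMSO libraries carried part of this. IFI27 fell by 2.30 ± 0.64 with all libraries, but its difference without the pair was -0.48 ± 0.20 (adjusted p = 0.072). ISG15 and IFITM1 fell by 2.74 ± 0.74 and 2.24 ± 0.60 with all libraries and by 1.13 ± 0.38 and 0.74 ± 0.26 without the pair, and neither passed when the shallow FIIN-3 library was left out too (adjusted p = 0.052 for both). Without the pair 9 fell and 1 rose, with a median of -0.48.

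Genes of MHC antigen presentation, many of them also interferon-inducible, had 1 call in each direction. TAPBP, which loads peptides on class I molecules, rose by 0.96 ± 0.22 and was the gene of 17 tested that rose, while PSMB9, an immunoproteasome subunit, was the gene that fell, by 1.92 ± 0.52 (0.56 ± 0.19 without the pair). Without the pair 7 of the 17 rose and 1 fell.

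Windows of the interferon genes were searched for the interferon-stimulated response element (GAAA, any 2 bases, GAAA) on both strands. It occurred in 13 of 20 interferon genes with a window (65%) and in 5 of 13 MHC genes (38.5%), TAPBP among them. None of the G1/S, mitotic or phosphatase genes held it, and 3.65% of all windows did. IFIT3 (chr10:89327747-89328046, plus strand), of which no test is given, and IFI27 (chr14:94110486-94110785, plus strand), which did not pass without the pair, each hold 2 matches, in capitals.
IFIT3: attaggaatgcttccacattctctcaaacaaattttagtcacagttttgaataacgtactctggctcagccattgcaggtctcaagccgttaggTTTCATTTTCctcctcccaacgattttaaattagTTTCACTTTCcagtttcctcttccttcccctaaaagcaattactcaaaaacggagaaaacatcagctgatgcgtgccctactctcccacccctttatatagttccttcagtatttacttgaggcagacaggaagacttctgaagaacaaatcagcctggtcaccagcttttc
IFI27: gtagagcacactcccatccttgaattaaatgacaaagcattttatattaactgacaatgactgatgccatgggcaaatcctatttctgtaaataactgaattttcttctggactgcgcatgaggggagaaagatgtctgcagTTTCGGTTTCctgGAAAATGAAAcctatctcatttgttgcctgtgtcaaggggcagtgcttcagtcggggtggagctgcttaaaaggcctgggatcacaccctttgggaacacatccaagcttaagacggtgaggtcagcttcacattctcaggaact

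Genes of the estrogen receptor list were more often higher than lower with FIIN-3. ESR1, the receptor gene, went from 10.5, 29.2 and 41.996 CPM to 52.5, 57.4 and 72.1 CPM without overlap and rose by 1.05 ± 0.22 (adjusted p = 0.0040; 0.77 ± 0.15 without the pair). IGFBP5, a secreted binder of insulin-like growth factors, went from 24.5, 108.6 and 156.9 CPM to 194.7, 273.8 and 323.6 CPM, a rise of 1.49 ± 0.30. The chemokine CXCL12 rose by 1.16 ± 0.25, the growth regulator GREB1 by 1.12 ± 0.32, the secreted protein SCUBE2 by 1.28 ± 0.39 and the prolactin receptor PRLR by 1.24 ± 0.36. PGR, the progesterone receptor, named after its values were seen because it is the usual readout of estrogen receptor activity, rose by 0.86 ± 0.27 (adjusted p = 0.029), from 6.12, 24.5 and 36.7 CPM to 36.8, 39.8 and 53.8 CPM. The carbonic anhydrase CA12 and IGFBP4 fell by 1.05 ± 0.24 and 0.80 ± 0.23. Of 25 genes tested of 26 listed, 10 rose and 3 fell, with a median of 0.65. The same counts, of 26 tested, held without the pair, with a median of 0.46. Among all genes tested, 9.8% were called higher and 15.9% lower.

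Luminal and basal identity genes moved in both directions. BCAS1, a gene amplified in breast cancer, went from 11.7, 29.4 and 33.6 CPM to 100.6, 103.7 and 124.7 CPM and rose by 2.02 ± 0.19 (adjusted p = 2.4e-05). ELF5, the alveolar ETS factor, rose by 1.30 ± 0.27 and the keratins KRT19 and KRT4 by 1.01 ± 0.29 and 1.89 ± 0.53. The secretory chaperone AGR2 fell by 2.48 ± 0.54 (1.16 ± 0.15 without the pair), the pioneer factor FOXA1 by 0.97 ± 0.22 and TFAP2C by 1.89 ± 0.53 (0.42 ± 0.14 without the pair). In all 5 of 19 luminal genes rose and 4 fell. Among basal, squamous and mesenchymal genes 3 rose and 3 fell of 14 tested of 24 listed. KRT15, a basal keratin, rose by 0.91 ± 0.19, and IVL, the cornified envelope protein involucrin, fell by 1.27 ± 0.32.

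Of the ERBB receptors, ERBB2 and ERBB3 rose. ERBB2 went from 25.7, 79.5 and 109.96 CPM to 183.99, 209.4 and 220.3 CPM and rose by 1.47 ± 0.22 (adjusted p = 0.00056). ERBB3, its kinase-impaired partner, went from 54.2, 155.2 and 215.8 CPM to 226.6, 344.6 and 448.4 CPM, a rise of 1.20 ± 0.24. Neither gene had overlapping groups. The ligand gene EGF rose by 1.34 ± 0.32 and the ligand gene AREG fell by 1.13 ± 0.33, which made 3 higher and 1 lower of 7 tested of 13 listed. Among FGF receptors, FGFR4 went from 5.92, 31.8 and 56.2 CPM to 61.4, 79.4 and 103.3 CPM without overlap and rose by 1.48 ± 0.35. FGFR1 differed by 0.24 ± 0.29 (adjusted p = 0.57; -0.04 ± 0.27 without the pair) and FGFR3 by -0.80 ± 0.46 (adjusted p = 0.20). SDC1, a heparan sulfate coreceptor, fell by 1.68 ± 0.26. Of the 14 receptor, coreceptor and adaptor genes tested, 2 rose and 1 fell.

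Growth arrest genes, several of them targets of FOXO factors that PI3K and AKT signalling holds down, had 6 higher and 0 lower of 17 tested of 20 listed. PIK3IP1, an inhibitor of PI3K, went from 3.50, 5.19 and 8.10 CPM to 15.6, 20.6 and 23.5 CPM without overlap and rose by 1.78 ± 0.21 (adjusted p = 0.00013). The antiproliferative genes BTG2 and TOB1 rose by 1.57 ± 0.28 and 1.21 ± 0.33, and CCNG2, a cyclin of quiescent cells, by 1.00 ± 0.29. Within the BCL2 family BCL2L1, which blocks apoptosis, rose by 1.05 ± 0.35 and the proapoptotic genes BAD and BID fell by 0.81 ± 0.27 and 1.42 ± 0.49. All 3 calls were lost in 11 or more of 22 alternatives, and BID differed by -0.10 ± 0.14 without the pair (adjusted p = 0.65).

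Metabolic and stress genes were called in both directions. NDRG1, a stress-inducible gene, rose by 2.67 ± 0.51, PFKFB4, of glycolytic control, by 1.57 ± 0.30 and DDIT4, an inhibitor of mTORC1, by 1.74 ± 0.39. Of 15 genes of glycolysis and hypoxia 4 rose and 1 fell, of 17 genes of cholesterol and fatty acid synthesis 3 rose and 2 fell, and of 17 ribosome biogenesis genes 2 rose and 6 fell, with a median of -0.52. Of 15 genes of the ATF4 and stress response 3 rose and 1 fell, and without the pair 4 rose and 7 fell. A list of 15 genes taken from earlier results of these data, shown as receptor-line responders in the plot of calls by list, had 12 tested members, of which 2 rose, GPRC5A among them. None of 11 mitochondrial RNAs was called with all libraries, and 4 were higher without the pair.

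Among all genes with a mean log2 CPM of 3 or more, the largest rises included DUSP15, a dual-specificity phosphatase outside the ERK list, from 0.269, 1.83 and 2.91 CPM to 11.2, 21.4 and 24.4 CPM (3.30 ± 0.35). DUSP15 passed the filter through its FIIN-3 level, so the filter favoured a rise. Its rises in the comparisons below are read with the same limit. SELENBP1, a selenium-binding methanethiol oxidase, went from 16.02, 51.1 and 62.9 CPM to 232.3, 274.6 and 347.005 CPM (2.47 ± 0.23). Neither gene had overlapping groups. The circadian repressor BHLHE40 rose by 2.25 ± 0.21 and the arrestin ARRDC3 by 2.21 ± 0.29. At the other end HIST1H4C, a replication-dependent histone gene, fell by 4.56 ± 0.69, the peroxisomal oxidase gene ACOX2 by 4.55 ± 0.67 and the kinetochore gene SPC25 by 4.21 ± 0.57. The falls of these 3 were smaller without the pair, at 2.93 ± 0.21, 3.23 ± 0.31 and 3.17 ± 0.29, and all remained called. FAM111B, which encodes a protease, fell by 3.25 ± 0.33 with and 3.03 ± 0.24 without the pair.

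With FGF2 present, FIIN-3 was compared with FGF2 alone, and the genes called were 1080 of 12628 genes tested (8.55%), 550 higher (4.36%) and 530 lower (4.2%). DUSP6 read 109.6, 146.05 and 155.6 CPM with FGF2 and 38.3, 49.02 and 53.9 CPM with FGF2 and FIIN-3, and fell by 1.56 ± 0.13 (adjusted p = 5.2e-06). N550K cells with DMSO had read 11.5 to 72.2 CPM, and 49.3 CPM or more outside the low-MT-RNR2 pair. DUSP4 fell by 1.39 ± 0.11, CCND1 by 0.77 ± 0.19, MKI67 by 0.80 ± 0.15 and RRM2 by 0.66 ± 0.13. TYMS differed by -0.46 ± 0.18 (adjusted p = 0.12). Of the G1/S genes 8 of 28 fell and of the mitotic genes 7 of 24, with medians of -0.49 and -0.48 against -0.03 over all genes tested.

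The difference between the 2 responses was tested as an interaction over the 4 N550K groups of set 1; its ligand-free arm is the comparison above, so the values are not independent. It called 710 of 13494 genes (5.26%), 507 with a more positive change in the presence of FGF2 (3.76%) and the rest with a more negative one (1.5%), and 435 of 13907 (3.13%) without the low-MT-RNR2 pair. With ranges of 96 title numbers as a block, chosen after seeing the data, it called 27 genes (0.2%), of 1020 at an unadjusted p under 0.05. DUSP6 fell less with FGF2 by 3.04 ± 0.38 (adjusted p = 9.1e-05) and DUSP4 by 1.02 ± 0.27 (adjusted p = 0.032). CLSPN differed by 3.01 ± 0.47, CCND1 by 0.96 ± 0.28 and MKI67 by 1.03 ± 0.29, each called also without the pair. With the block DUSP6 (3.24, adjusted p = 0.00011) and CLSPN (2.21, adjusted p = 0.011) were called, while DUSP4, CCND1 and MKI67 were not (adjusted p = 0.28, 0.40 and 0.37). Without the block the interaction called 13 of the 28 G1/S genes and 11 of the 24 mitotic genes, all in the positive direction. HIST1H4C differed by 4.08 ± 0.72, by 2.31 ± 0.37 without the pair and by 1.77 with the block (adjusted p = 0.26).

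Other genes had an interaction of the opposite sign. BHLHE40 and DDIT4, which rose without ligand, differed by -0.18 ± 0.44 and -0.13 ± 0.21 with FGF2 (adjusted p = 0.84 and 0.74), and their interactions were -2.37 ± 0.53 and -1.84 ± 0.44. GPRC5A, an orphan receptor, rose by 1.73 ± 0.26 without ligand and fell by 0.84 ± 0.15 with it (interaction -2.54 ± 0.29, adjusted p = 4.2e-05). GDF15, a stress cytokine, had an interaction of -2.58 ± 0.43. With the block GPRC5A was called (-2.27, adjusted p = 0.0055), and BHLHE40, DDIT4 and GDF15 were not (adjusted p = 0.83, 0.48 and 0.053).

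Several genes were called both with and without ligand. DUSP15 rose by 3.66 ± 0.36 with FGF2, BCAS1 by 2.09 ± 0.20 and ARRDC3 by 1.92 ± 0.24. IFIT3 went from 24.8, 61.3 and 248.8 CPM with FGF2 to 0.523, 1.61 and 2.91 CPM with FGF2 and FIIN-3, an estimated fall of 5.95 ± 0.59. IFIT3 passed the filter through its FGF2 level, so the filter favoured a fall and no test of IFIT3 is given. With IFIT3 counted, 10 of 21 interferon genes fell. ESR1 rose by 1.00 ± 0.20 and PGR by 1.09 ± 0.19. FGFR2 differed by 0.10 ± 0.26 (adjusted p = 0.85).

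**Figure D3:**
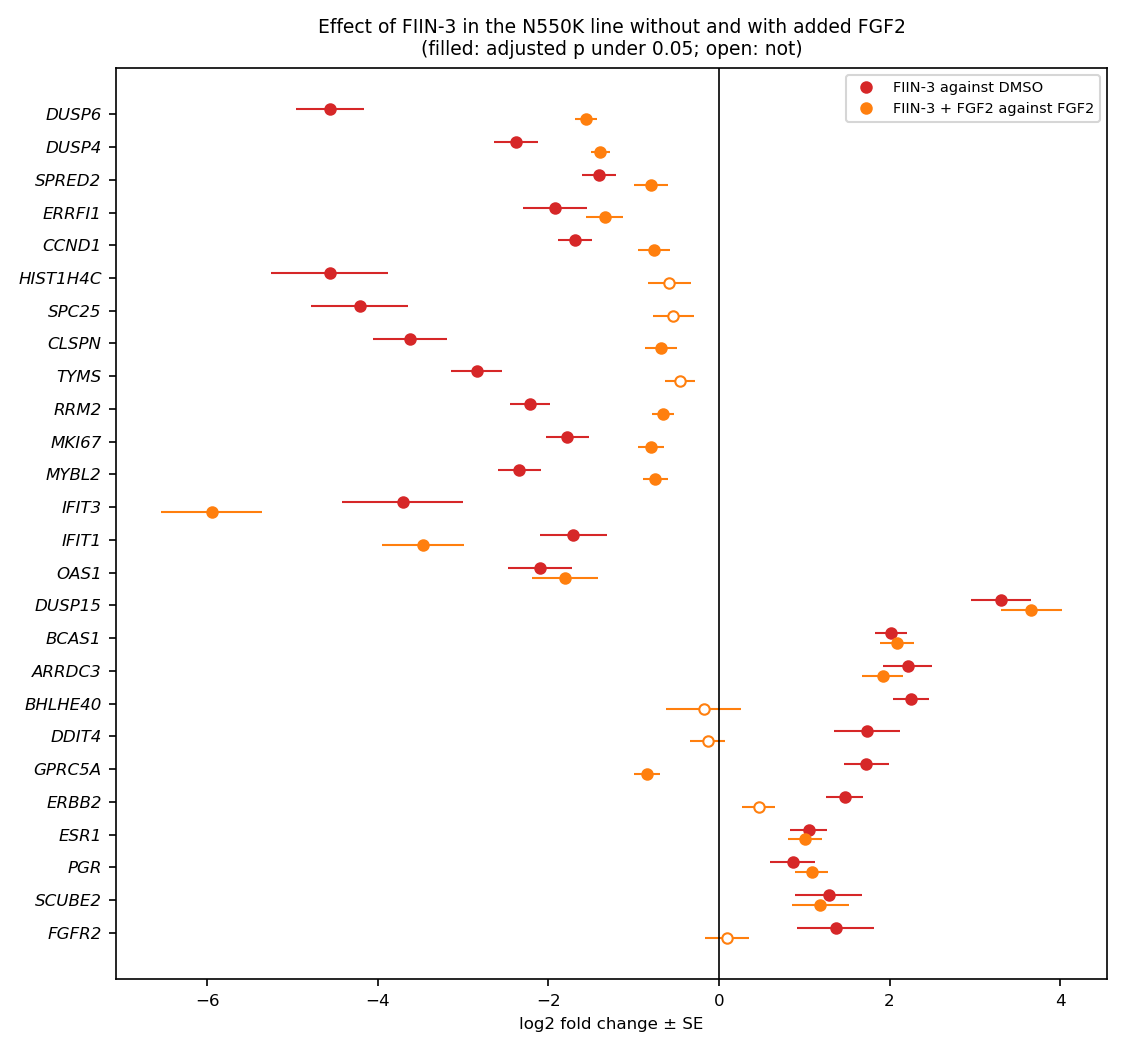
Log2 change (points, with bars of 1 SE) of selected genes with FIIN-3 against DMSO and with FIIN-3 and FGF2 against FGF2 in N550K cells, filled where the adjusted p is under 0.05. DUSP6 lies at -4.56 without and -1.56 with FGF2, while DUSP15, at 3.30 and 3.66, and ESR1, at 1.05 and 1.00, lie close together in both. IFIT3 and DUSP15 carry the limit of the filter given in the text.

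GFP cells with DMSO gave a reference without the transgene. The 2 comparisons that follow share libraries with the first one and with each other. At DMSO, N550K differed from GFP in 1.6% of 12579 genes, 120 higher (0.954%) and 81 lower (0.644%), and in 1027 of 12948 (7.93%) without the DMSO libraries of low MT-RNR2, 1 of them a GFP library. With ranges of 96 title numbers as a block, 468 genes (3.72%) differed, 55.6% of them higher. The DMSO libraries of low MT-RNR2 in both lines share a range. N550K with FIIN-3 differed from GFP with DMSO in 1788 of 12454 genes (14.4%), 722 higher (5.8%) and 1066 lower (8.56%), and in 3182 of 12706 (25%) without the GFP library.

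DUSP6, DUSP4 and SPRED2 were higher than in GFP cells at DMSO and were not called against them with FIIN-3. DUSP6 read 1.15, 2.27 and 4.96 CPM in GFP cells with DMSO, was higher by 4.01 ± 0.41 in N550K cells with DMSO (adjusted p = 0.00022), and differed by -0.52 ± 0.43 from GFP in N550K cells with FIIN-3 (adjusted p = 0.42). DUSP4 was higher by 2.10 ± 0.25 with DMSO and differed by -0.28 ± 0.24 with FIIN-3 (adjusted p = 0.45). SPRED2 was higher by 1.23 ± 0.17 and then differed by -0.17 ± 0.20 (adjusted p = 0.58). None of the 9 phosphatases was called between N550K with FIIN-3 and GFP with DMSO. These standard errors leave room for differences, and no test of equality was made.

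Cell cycle genes were lower with FIIN-3 than in GFP cells. Of the 28 G1/S genes none was called between the lines at DMSO, and 20 were lower in N550K cells with FIIN-3 than in GFP cells with DMSO, with a median of -1.34 against -0.08 over all genes tested. The DMSO comparison called 1.6% of all genes, and 7.93% without the libraries of low MT-RNR2. The absence of G1/S calls there leaves room for differences, and no test of equality was made. Of 24 mitotic genes 13 were lower. TYMS was lower by 2.74 ± 0.28, FAM111B by 3.18 ± 0.31, CLSPN by 3.06 ± 0.51, CCND1 by 0.98 ± 0.25 and MKI67 by 1.34 ± 0.24.

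Parts of the interferon and estrogen receptor lists differed from GFP cells with DMSO and with FIIN-3. IFI27 was close to nil in GFP cells with DMSO, at 13 reads in 6 libraries. It passed the filter only through its N550K libraries, so its direction was fixed by the filter and no test of it is given. Its estimated difference in N550K cells with FIIN-3 was 6.95 ± 0.38. IFI6 was higher by 4.31 ± 0.59 with DMSO and by 3.30 ± 0.33 with FIIN-3, and OAS1 by an estimated 4.30 ± 0.63 and 2.22 ± 0.59. Differences of this size put OAS1 near the filter's minimum in GFP cells. It may have entered through its N550K libraries alone, which would favour a call of higher. ISG15 was higher by 3.99 ± 0.85 with DMSO and differed by 1.23 ± 0.60 with FIIN-3 (adjusted p = 0.17). In N550K cells with FIIN-3, 6 of 19 interferon genes, IFI27 among them, and 12 of 17 MHC genes were higher than in GFP cells and none was lower. PGR was lower by 2.64 ± 0.32 with DMSO and by 1.77 ± 0.22 with FIIN-3, SCUBE2 by 3.26 ± 0.38 and 1.95 ± 0.21, IGFBP5 by 2.51 ± 0.37 and 1.02 ± 0.23, and ESR1 by 1.64 ± 0.25 and 0.59 ± 0.19. Of 26 estrogen receptor genes 9 were lower with FIIN-3 and none higher. CLEC3A, a secreted lectin, was higher by 2.77 ± 0.51 with DMSO and by 3.46 ± 0.48 with FIIN-3, GDF15 by 2.89 ± 0.37 and 3.18 ± 0.39, and ANXA1, annexin A1, by 3.57 ± 0.50 and 2.90 ± 0.62. DUSP15 differed by 0.08 ± 0.45 at DMSO (adjusted p = 0.97) and was higher by 3.37 ± 0.35 with FIIN-3.

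**Figure D4:**
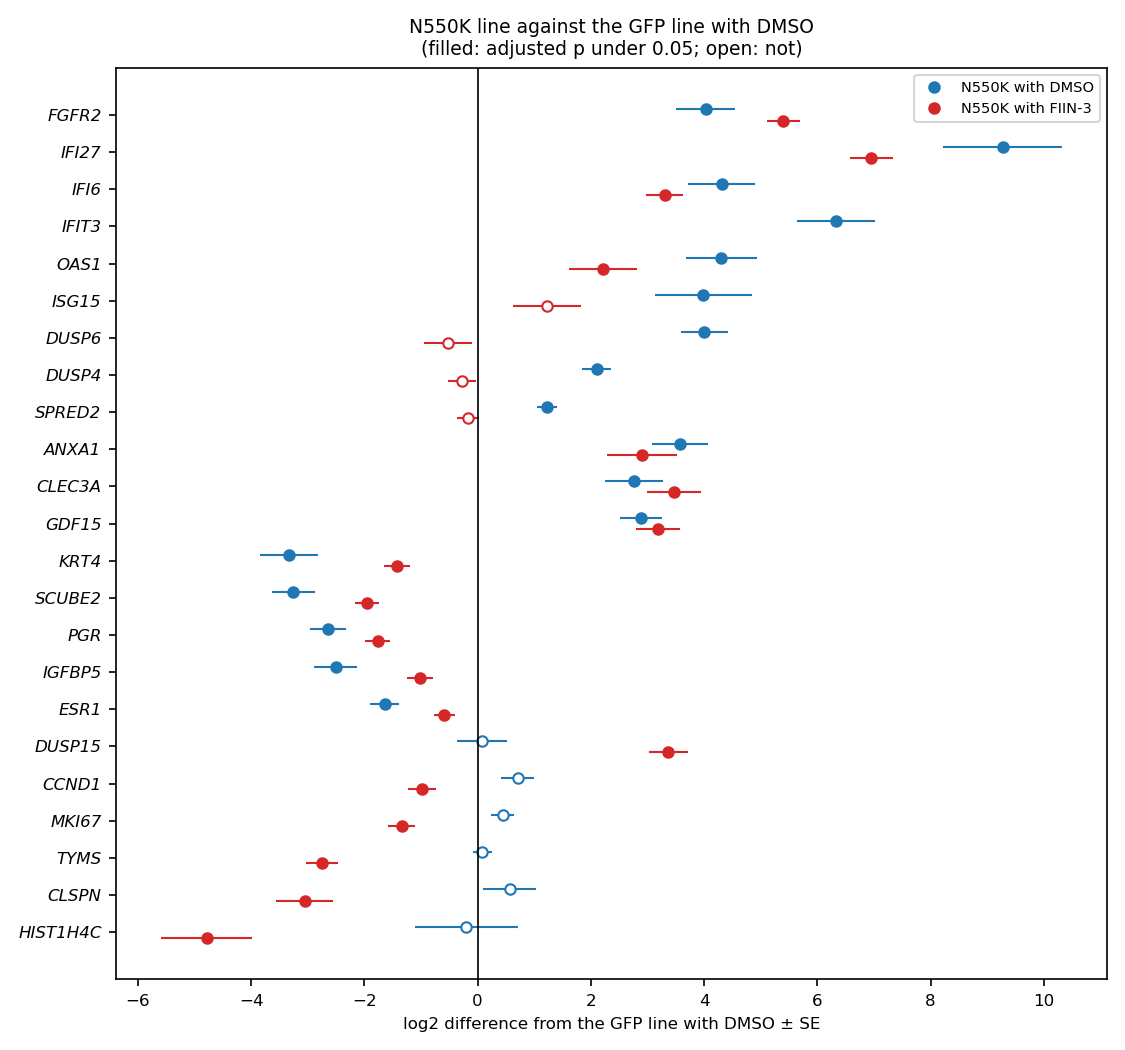
Log2 difference from GFP cells with DMSO (points, with bars of 1 SE) for selected genes in N550K cells with DMSO and with FIIN-3, filled where the adjusted p is under 0.05. DUSP6 goes from a filled point at 4.01 to an open one at -0.52, and TYMS ends at -2.74. IFI27, which passed the filter only through its N550K libraries, lies at 6.95 with FIIN-3.

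Set 2, whose libraries are not shared with the comparisons above, allowed FIIN-3 to be given to both lines. N550K and GFP cells, both with FIIN-3, differed in 1170 of 10579 genes (11.1%), 575 higher (5.44%) and 595 lower (5.62%) in N550K. DUSP6 read 1.53, 3.63 and 4.82 CPM in GFP cells and 1.78, 4.66 and 6.49 CPM in N550K cells, a difference of 0.54 ± 0.38 (adjusted p = 0.42) with overlapping groups, and DUSP4 differed by 0.25 ± 0.23 (adjusted p = 0.55). RRM2 went from 193.5, 262.4 and 309.1 CPM in GFP to 55.6, 69.03 and 84.4 CPM in N550K cells, lower by 1.87 ± 0.11 without overlap. TYMS was lower by 1.61 ± 0.19 and CLSPN by 2.60 ± 0.43, and 22 of 24 G1/S genes tested and 13 of 24 mitotic genes were lower and none higher. IFI27 read 13.3, 20.2 and 21.6 CPM in N550K cells against 2 reads in all 6 GFP libraries, and IFI6 was higher by 3.60 ± 0.15. Of 14 MHC genes tested 10 were higher and none lower. PGR was lower by 1.68 ± 0.12 and ESR1 by 1.00 ± 0.13, and 13 of 23 estrogen receptor genes were lower and 1 higher.

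Palbociclib, which acts at CDK4/6, below the receptor, gave a contrast in the same N550K cells of set 2, where 1204 of 10702 genes (11.3%) differed, 636 higher (5.94%) and 568 lower (5.31%) with FIIN-3. DUSP6 read 89.2, 105.4 and 140.3 CPM with palbociclib and 1.78, 4.66 and 6.49 CPM with FIIN-3, lower by 4.47 ± 0.19 (adjusted p = 1.5e-17). CCND1 read 263.9, 302.7 and 384.4 CPM against 50.7, 63.3 and 81.6 CPM, lower by 2.21 ± 0.13. Cell cycle genes were higher with FIIN-3 than with palbociclib. MKI67 read 1.94, 3.20 and 5.68 CPM with palbociclib and 13.6, 18.995 and 37.3 CPM with FIIN-3, higher by 2.67 ± 0.30, and RRM2 was higher by 2.79 ± 0.20. All 24 mitotic genes and 15 of 21 G1/S genes tested were higher with FIIN-3, with medians of 1.82 and 0.93. MKI67, with a palbociclib median of 3.20 CPM, passed the filter through its FIIN-3 level. The filter favours a call of higher for any member that entered in this way, and these counts carry that limit. IFIT3 was lower by an estimated 2.75 ± 0.61 with FIIN-3, and whether it passed the filter through its palbociclib level alone was not examined. With IFIT3 counted, 7 of 21 interferon genes were lower and none higher, and PGR was higher by 0.58 ± 0.16. DUSP15 was higher by an estimated 4.26 ± 0.37, with the limit of the filter stated for this gene above. NGFR, the p75 neurotrophin receptor, read 11.9, 18.6 and 34.98 CPM with FIIN-3 against 8 reads in all 6 palbociclib libraries. NGFR passed the filter through its FIIN-3 level, and no test of it is given.

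**Figure D5:**
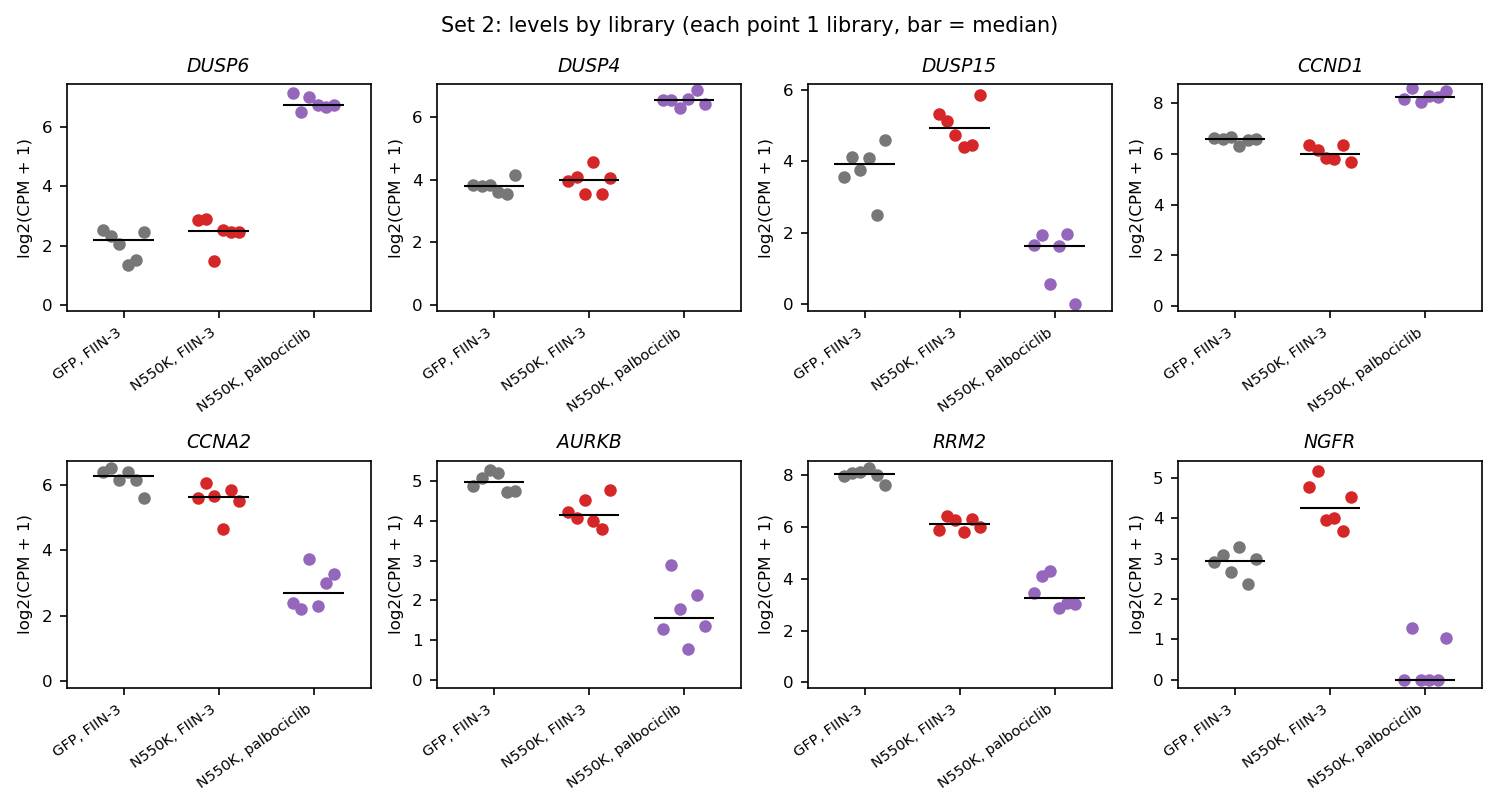
Levels of 8 genes as log2(CPM + 1) in set 2, 1 point a library and a bar at the median, for GFP cells with FIIN-3, N550K cells with FIIN-3 and N550K cells with palbociclib. The cell cycle genes CCNA2, AURKB and RRM2 are lowest with palbociclib, where DUSP6 (89.2 to 140.3 CPM), DUSP4 and CCND1 are highest.

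Cells carrying FGF3, a ligand in place of a mutant receptor, were treated with FIIN-3 in set 1 and fitted together with the N550K libraries. FIIN-3 changed 629 of 13642 genes (4.61%), 385 lower (2.82%) and the rest higher (1.79%), with only 5 DMSO libraries of 603534 to 3145400 counts. DUSP6 went from 26.5, 42.9 and 53.4 CPM to 0.939, 3.50 and 5.07 CPM and fell by 3.54 ± 0.39, and 26 of 28 G1/S genes fell, with a median of -1.80. DUSP15 rose by 3.32 ± 0.48 and ESR1 by 0.95 ± 0.22. Of 22 interferon genes 3 rose and none fell. IFIT1 rose by 4.61 ± 1.15, but its FIIN-3 libraries ran from 0.369 to 125.3 CPM, and when libraries of low MT-RNR2 share or low depth were left out its difference was 1.25 (adjusted p = 0.64). That setting leaves 1 FGF3 DMSO library, a lone sample assumed to vary like the other groups.

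The difference in response between the 2 lines was called for 593 genes (4.35%), 465 more negative in N550K (3.41%) and the rest more positive (0.938%). IFIT3 differed by -8.19 on the log2 scale, ISG15 by -6.34 and IFIT1 by -6.30, and BHLHE40 by 2.70. Of 28 G1/S genes 1 was called. Of the 5 FGF3 DMSO libraries 4 are of low depth. Leaving out low-depth libraries therefore sets 1 FGF3 DMSO library against the rest, with 1 gene called, and 1.38% of 15665 when those of low MT-RNR2 share were left out too. In that last setting, against the same lone library, IFIT3, ISG15 and IFIT1 did not pass (adjusted p = 0.14, 0.58 and 0.20), while BHLHE40 did (3.07, adjusted p = 0.0037).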

How the data were processed

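SMART-Seq2 libraries of T47D cells were compared as gene-level read counts, which the authors deposited unnormalized for 54592 genes and 647 libraries; 59 columns were used and 588 were not. STAR and hg19 are named per the submitters' processing notes, and the program and annotation used for counting are not given in the sources used here. A second table, deposited by the authors as log2(TPM + 1) per library, was used only for a limma alternative. Groups come from the labels' titles. The members and the 25 gene lists (412 genes) were chosen with earlier results of these data known.

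Genes were kept by filterByExpr (minimum count 10), scaled by TMM and tested with edgeR 4.0.16 by quasi-likelihood F test (R 4.3.3), adjusted over all genes tested at 0.05. The standard error is the absolute log2 change divided by the square root of F. Levels are counts divided by the library total, times 1e+06 (CPM). Genes named are list members with the smallest p-values (up to 8 a list), the 15 largest changes in each direction with a mean log2 CPM of 3 or more, up to 8 a direction in the other comparisons, and FGFR genes, FGF3 and MT-RNR2; some that this rule names are not reported here. On simulated counts for 12263 genes of the first comparison, 94% of genes changed by a log2 of -2 and 18% of those changed by -1 were called. For changes of 2 and 1 the shares were 96% and 36%, against 0.0332% of unchanged genes. The simulated libraries were drawn independently and held no pair that stood apart. The share of false calls therefore does not carry over to the real libraries. No 2 libraries of a group agreed within sampling noise, with a smallest chi-square per degree of freedom of 3.17. Levels under a few CPM rest on few reads. In every comparison, a gene that misses the minimum count in either group enters through the other, and the filter then favours a call towards that other group. Library measures were compared by exact permutation (scipy 1.17.1). Alternatives were DESeq2 1.42.0, its size factors, limma 3.58.1 on the second table, no filter on low counts, scaling without mitochondrial genes, summing libraries with neighbouring title numbers, and leaving out libraries. Setting aside both kinds of doubtful library together, summing without the low-MT-RNR2 pair, and blocking by ranges of 96 title numbers were chosen after seeing the data. RefSeq promoter windows have build GRCh38.p14, which is not the build of the counts.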

Additional observations from a re-analysis of the deposited data

Results flagged for a closer look

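Of the sets of 6 values examined, 1 for each named gene or library measure in each group, 21 (8.47%) held a library far from the other 5, which chance gives in about 1 set in 20. In the DMSO group these were AREG at 27.7 CPM (replicate 2, lowest), IVL at 4.31 CPM (replicate 4, lowest) and SELENBP1 at 16.02 CPM (replicate 4, lowest). In the FIIN-3 group the shallow replicate 1 gave 0 CPM for DUSP1, CDKN2C and CMTM7, 179.4 CPM for CA12, 42.9 CPM for IGFBP4 and 25.3 CPM for BAD, all lowest, and 48.7 CPM for the fibronectin gene FN1 and 50.7 CPM for PCLAF, both highest. FIIN-3 replicate 2 was lowest for FGFR2 (383.8 CPM), ERRFI1 (3.50 CPM), NRIP1 (1.40 CPM), BTG2 (8.40 CPM), INSIG1 (6.30 CPM) and PFKFB3 (34.3 CPM) and highest for BCAS1 (124.7 CPM) and MVD (223.8 CPM). GINS2 was lowest in replicate 5 (59.6 CPM) and LSS highest in replicate 6 (178.4 CPM).

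The response to FIIN-3 differed with FGF2 by the interaction test, relative to a median interaction of 0.13 over all genes, for DUSP6 (3.04), DUSP4 (1.02), HIST1H4C (4.08), SPC25 (3.75), MND1 (3.17), PCLAF (3.14), CKS2 (3.12), CLSPN (3.01), CCND1 (0.96) and MKI67 (1.03), whose change was more positive with FGF2. It was more negative for GDF15 (-2.58), GPRC5A (-2.54), BHLHE40 (-2.37) and DDIT4 (-1.84). CKS2 and HIST1H4C, at 1.20 and 2.31 without the low-MT-RNR2 pair, moved most. With ranges of title numbers as a block DUSP6, SPC25, CLSPN and GPRC5A were called and the other 10 were not. Between the N550K and FGF3 lines the response differed for BHLHE40 (2.70), IFIT3 (-8.19), ISG15 (-6.34), IFIT1 (-6.30) and IFITM1 (-3.08).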

How the results depend on the processing

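The labels carry no replicate numbers, but title numbers fall in like ranges in several groups, so ranges of 96 were added as a replicate block after seeing the data. For N550K against GFP at DMSO the libraries of a shared range had r = 0.274, 0.762 and 0.75 across genes, and the block gave 3.72%. Between unlike ranges r ran from -0.737 to 0.583, so an unlike pair of ranges exceeded the lowest shared one. The DMSO libraries of low MT-RNR2 all lie in the same range, and their part in these values was not tested. In set 2 (r = 0.0595 to 0.125 against GFP, -0.0596 to 0.025 against palbociclib) and the FGF3 line (0.0731 to 0.151) the libraries share only a range, and the block gave 12.2%, 10.7% and 6.21%. With FGF2 it gave 9.18%, and for the FGF2 interaction 0.200%. No blocked fit was possible where the FIIN-3 libraries numbered above 360 were compared with a single other group. Of 5833 values for named genes under alternatives, 5270 kept direction and side of the threshold, 539 lost the call, 11 gained one and 13 changed sign, all 13 in genes that were not called. Shares below are percent of genes tested that were called. FIIN-3 alone against DMSO (25.7%) gave 35.3% by DESeq2, 11.2% by limma, 0.452% with neighbouring title numbers summed, and 16.8% to 28.2% with 1 library left out, lowest without FIIN-3 replicate 5. Without the filter more genes were tested, and shares fell to 10.9% here, 4.11% with FGF2, 0.658% and 6.23% against GFP, 3.95% and 4.04% in set 2 and 1.87% in the FGF3 line. With FGF2 (8.55%) summing gave 1.77% and leaving out 1 library 5.67% to 13.2%. The FGF2 interaction (5.26%) gave 13.9% by DESeq2, 0.452% by limma, 0.0132% summed, 4.21% without the filter, 2.73% without libraries of low depth, 3.13% without those of low MT-RNR2, 2.78% without both and 1.53% to 12.8% with 1 library left out. N550K against GFP at DMSO (1.6%) gave 3.97% by DESeq2, 0.851% by limma, 0.00702% summed, 7.93% without low MT-RNR2 and 0.988% to 2.61%. N550K with FIIN-3 against GFP (14.4%) gave 4.89% by limma, 25.04% without low MT-RNR2, 24.6% without both and 8.64% to 25.04%. With 1 library left out, set 2 shares ran from 8.80% to 11.6% against GFP and from 8.75% to 11.6% against palbociclib, and DESeq2 gave 12.5% and limma 13.6%, respectively. In the FGF3 line (4.61%) DESeq2 gave 7.10%, summing 1.76%, omission of low depth, which leaves 1 DMSO library, 0.230% and of low MT-RNR2 11.3%, with 3.16% to 6.04%. The line interaction (4.35%) gave 12.4% by DESeq2, 0.0806% by limma, 5.02% without the filter, 0.00639% without low depth, 1.38% without both, 0 when summed by edgeR (2034 genes at an unadjusted p under 0.05), and 1.13% to 11.9%. The cause was not tested. Without the low-MT-RNR2 pair the exact p was 0.0381 for total counts and 0.848 for the MT-RNR2 share, whose direction reversed. Sign changes were FGFR1 at -0.042 without low MT-RNR2, -0.093 without both and -0.00427 summed without the pair; with FGF2, FGFR2 (-0.080 to 0.24 with 1 library left out), BHLHE40 (0.10 by limma; -0.40 to 0.19) and DDIT4 (-0.20 to 0.10); against GFP, DUSP15 at DMSO (-0.045 summed; -0.054 to 0.42) and SPRED2 with FIIN-3 (0.098 by limma). Depth limits FIIN-3 replicate 1, 4 FGF3 DMSO and 2 FGF3 FIIN-3 libraries, and set 2.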
